A study of Mus musculus with 6 samples.

Results

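The genes described here are 8 genes of the myelin sheath of Schwann cells: Mbp, Pmp22, Prx, Mag, Mal, Cnp, Gjc3 and Drp2. They were chosen by name, and each was read from the array row annotated with that symbol and no other. There were 7 such rows, 1 per gene, among 23332 rows in all. Prx, which encodes the scaffold protein periaxin, was not among them and was not analysed here. The tissue was tibialis anterior, a fast leg muscle, from mice of the outbred ICR strain aged 16 weeks. The labels give no mutation, transgene or drug for either group. Muscle on slides was stained for acetylcholinesterase, the stained neuromuscular junctions (NMJs), 9973 in all, were dissected with a laser, and an equal area without junctions was cut from the same fibres. RNA from each of 3 NMJ samples and 3 non-NMJ samples was amplified from 10 ng and hybridised to mouse exon arrays, 1 array per sample. How many animals were used, and which array came from which, is not stated in the labels. The p-values therefore rest only on the spread among these samples, and they would be too small if arrays of a region came from the same animals.

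Myelin is the spiral of Schwann cell membrane around an axon. In its compact part the layers are pressed together by proteins such as the basic protein encoded by Mbp, and Pmp22 encodes a membrane-spanning protein of the same layers whose gene dosage matters in inherited neuropathies. The genes named here do not all belong to that compact part. The products of Mag, Cnp and Gjc3 sit mainly in the cytoplasm-filled channels and the membrane facing the axon, and the product of Drp2 sits with periaxin and dystroglycan in the outermost membrane. Near a muscle fibre the motor axon loses its myelin a short way before the junction, and its terminal is capped by terminal Schwann cells, which form no myelin.

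All 7 measured myelin genes were higher in NMJ regions. Their log2 differences (NMJ minus non-NMJ) ran from 0.88 for Mag to 4.03 for Gjc3, with a median of 2.08, against a median of -0.01 over all rows. The 3 NMJ arrays lay above the 3 non-NMJ arrays for 7 of 7 genes, where 22.8% of all rows were separated in that direction. Differences were tested with limma, a linear model fitted across all rows, and called at a Benjamini-Hochberg adjusted p under 0.05. By that test 7 of 7 genes were called higher and 0 lower. Over all rows 14.4% were called higher, 8.63% lower and 23% in either direction. In a fit of only the 14996 rows with 1 symbol, where these genes lie, 34.1% were called, and 61.7% of those were higher. A difference of at least 2-fold was called for 6 of the 7, against 5.51% of all rows. In captured tissue, more cells of a type and more RNA per cell cannot be told apart. Of all calls 62.5% were higher in NMJ regions, a share that was 46.6% after quantile normalization and 41.7% after median centring, while the 7 myelin genes were called higher in both.

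**Figure D1:**
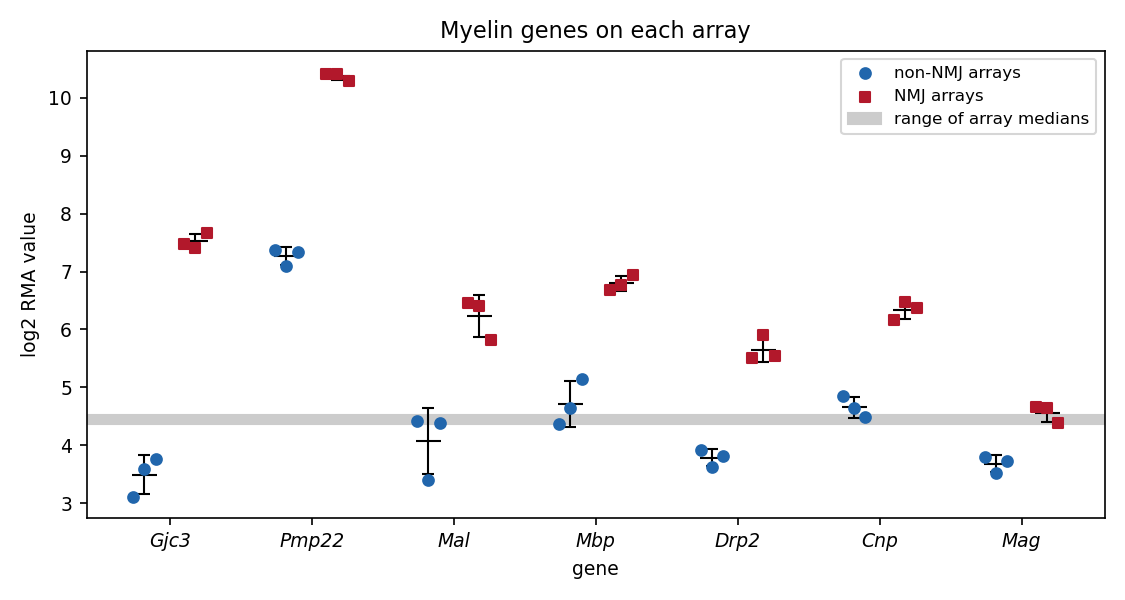
Log2 RMA values of the 7 measured myelin genes, ordered by their difference, on the 3 non-NMJ arrays (blue circles) and the 3 NMJ arrays (red squares), with black bars for mean and SD and a grey band for the range of the array medians (4.37 to 4.53). Points are spread sideways for legibility. For each gene the lowest NMJ value lies above the highest non-NMJ value, by 0.59 for Mag up to 3.65 for Gjc3.

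**Figure D2:**
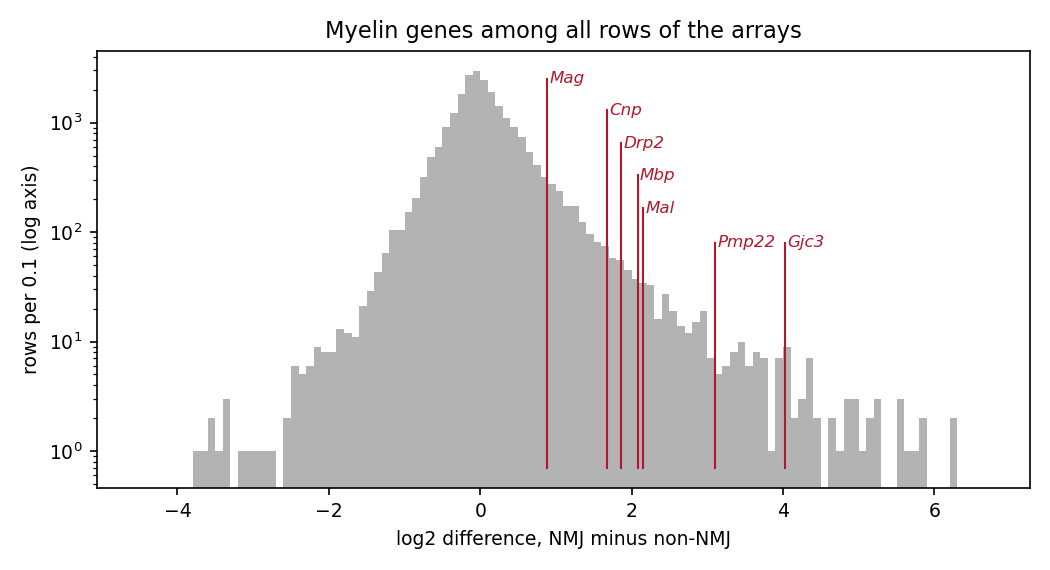
Number of array rows (vertical log axis) per 0.1 of log2 difference, NMJ minus non-NMJ, over all 23332 rows, with red lines at the 7 myelin genes; the height of a red line carries no value. Gjc3 at 4.03 had 43 rows above it and Pmp22 at 3.11 had 104, and Mag at 0.88 had 1785.

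The start regions of the genes are shown because Sox10, Egr2 and Tead1 encode factors known to act on myelin genes in Schwann cells. Whether these factors had a part in the differences here was not tested. RefSeq promoter windows (GRCm38.p6) ran from 250 bases before to 50 after a start. They were read for 5 of the 7 measured genes and for Prx, 11 windows in all. Drp2 had no window, and Mbp was left out of this step. The first listed window of each of these 5 measured genes follows, 5′ to 3′ on the strand of the gene. Capitals mark the letters ACAAAG (SOX factors), AACAAT (a further SOX form), GCGTGGG (EGR factors) and GGAATG (TEAD factors), each searched on both strands.
Gjc3, chr5:137963049-137963348, minus strand: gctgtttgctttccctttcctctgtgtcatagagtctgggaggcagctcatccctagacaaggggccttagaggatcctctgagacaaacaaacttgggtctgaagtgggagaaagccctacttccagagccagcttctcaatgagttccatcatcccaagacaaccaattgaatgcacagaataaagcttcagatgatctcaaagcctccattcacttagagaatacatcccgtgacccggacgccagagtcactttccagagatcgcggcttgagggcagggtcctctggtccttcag
Pmp22, chr11:63128732-63129031, plus strand: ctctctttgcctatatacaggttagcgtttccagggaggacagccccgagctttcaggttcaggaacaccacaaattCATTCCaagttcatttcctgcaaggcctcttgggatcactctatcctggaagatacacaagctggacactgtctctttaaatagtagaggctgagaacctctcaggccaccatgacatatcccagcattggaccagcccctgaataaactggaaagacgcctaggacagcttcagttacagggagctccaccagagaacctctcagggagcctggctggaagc
Mal, chr2:127656646-127656945, minus strand: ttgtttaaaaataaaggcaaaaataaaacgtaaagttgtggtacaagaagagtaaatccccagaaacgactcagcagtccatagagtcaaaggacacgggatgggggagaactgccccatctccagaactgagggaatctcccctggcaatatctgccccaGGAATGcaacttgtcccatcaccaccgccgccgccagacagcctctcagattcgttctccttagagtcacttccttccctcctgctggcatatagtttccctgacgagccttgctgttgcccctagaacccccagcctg
Cnp, chr11:100574689-100574988, plus strand: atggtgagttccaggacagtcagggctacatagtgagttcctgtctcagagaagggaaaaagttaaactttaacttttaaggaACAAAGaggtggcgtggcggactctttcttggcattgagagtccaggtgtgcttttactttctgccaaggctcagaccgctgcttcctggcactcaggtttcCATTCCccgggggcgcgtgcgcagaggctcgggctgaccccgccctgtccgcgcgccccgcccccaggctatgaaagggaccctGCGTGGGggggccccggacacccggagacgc
Mag, chr7:30914814-30915113, minus strand: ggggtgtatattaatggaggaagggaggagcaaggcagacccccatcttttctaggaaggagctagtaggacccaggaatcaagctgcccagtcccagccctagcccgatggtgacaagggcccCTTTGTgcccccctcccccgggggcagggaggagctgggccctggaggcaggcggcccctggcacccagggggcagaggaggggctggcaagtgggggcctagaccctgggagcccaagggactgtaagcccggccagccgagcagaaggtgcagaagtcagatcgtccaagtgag
The Cnp window held ACAAAG 167 bases before the start, GCGTGGG 19 bases after it and the reverse complement of GGAATG 65 bases before it. The Mag window held the reverse complement of ACAAAG 126 bases before the start. The Mal and Pmp22 windows each held GGAATG letters, 89 and 173 bases before the start, on the gene's strand and on the other strand respectively. The Gjc3 window, of the gene with the largest difference, held none of the 4 motifs. No motif lay in another. Such letters are common: of 32851 RefSeq windows, 18.71% held ACAAAG, 10.72% AACAAT, 5.04% GCGTGGG and 14.66% GGAATG. Pmp22 has 4 listed starts, and its windows hold 3, 18, 20 and 30 CpG pairs against a median of 7 over all windows. Pmp22 is known to be transcribed from alternative starts, of which the array's gene-level row makes a single value, so the start in use was not measured.

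Pmp22, the tetraspan myelin protein gene, was bright and even between replicates. Log2 values of 10.42, 10.41 and 10.29 were read in NMJ samples 1, 2 and 3, against 7.37, 7.10 and 7.33 in non-NMJ samples 1, 2 and 3. The replicates of each region stayed within 0.28, and the groups were separated by 2.92. The mean rose from 7.27 ± 0.15 to 10.37 ± 0.07 (SD, n = 3 per region), an 8.61-fold difference (log2 difference 3.11 ± 0.11, SE; limma adjusted p = 2.58e-05). Its non-NMJ mean lay above 83.09% of rows and its NMJ mean above 98.14%. For the other measured genes the non-NMJ mean lay above 37.44% (Gjc3) to 54.89% (Mbp) of rows. Which cells gave the Pmp22 signal in either region was not tested.

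Mbp, the basic protein gene, is also known for non-myelin transcripts in other cells, which its gene-level row would not separate. In NMJ samples it read 6.68, 6.76 and 6.94, against 4.36, 4.63 and 5.15 in non-NMJ samples. The non-NMJ arrays were spread over 0.79 and the NMJ arrays over 0.26, and the non-NMJ values all lay below the lowest NMJ array. The mean rose from 4.72 ± 0.40 to 6.80 ± 0.13 (SD, n = 3), a 4.23-fold difference with a log2 size of 2.08 ± 0.21 (SE; limma adjusted p = 0.00127).

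Mal encodes a small proteolipid of membrane rafts that is made in Schwann cells, in oligodendrocytes and in some epithelia and T cells. It had the widest spread of the 7 genes. Its log2 values were 6.46, 6.41 and 5.82 at junctions, against 4.42, 3.41 and 4.39 away from them. NMJ array 3 and non-NMJ array 2 were the low ones, and the regions still did not overlap. The value on non-NMJ array 2 lay below that array's median of 4.38, and its level over background is unknown. The mean rose from 4.07 ± 0.58 to 6.23 ± 0.36 (SD, n = 3), a 4.45-fold difference with a log2 size of 2.15 ± 0.32 (SE; limma adjusted p = 0.00567). With single arrays left out the log2 difference ran from 1.82 to 2.36 and stayed called.

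Gjc3 encodes a connexin of the inner Schwann cell membrane. It had the largest difference of the 7 genes. It read 7.48, 7.41 and 7.67 in NMJ samples, against 3.11, 3.59 and 3.76 in non-NMJ samples. On the non-NMJ arrays it lay below each array's median, and on the NMJ arrays above 83.97% of rows. The mean rose from 3.49 ± 0.34 to 7.52 ± 0.14 (SD, n = 3), a 16.4-fold difference with a log2 size of 4.03 ± 0.18 (SE; limma adjusted p = 6.85e-05). No detection calls were used, so it is unknown whether the non-NMJ level stood above background, and the fold is that of the RMA values.

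Drp2 encodes dystrophin-related protein 2, which joins periaxin to dystroglycan in patches of the outer membrane. Log2 values were 5.51, 5.90 and 5.54 at junctions, against 3.92, 3.63 and 3.81 elsewhere. The non-NMJ values were again below each array's median, with no overlap between regions. Its mean rose from 3.79 ± 0.14 to 5.65 ± 0.22 (SD, n = 3), which is 3.64-fold, or 1.86 ± 0.14 (SE) on the log2 scale (limma adjusted p = 4.59e-04).

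Cnp, which encodes a phosphodiesterase of the cytoplasmic channels of myelin, is expressed at lower levels in other cells as well. Log2 values of 6.17, 6.48 and 6.37 at junctions stood against 4.85, 4.64 and 4.49 elsewhere. All 6 arrays lay above their medians, and the regions stood 1.32 apart. The mean rose from 4.66 ± 0.18 to 6.34 ± 0.16 (SD, n = 3), a 3.20-fold difference, or 1.68 ± 0.13 (SE) on the log2 scale (limma adjusted p = 5.24e-04).

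Mag encodes a sialic acid-binding adhesion protein that faces the axon. It had the smallest difference of the 7 genes, on a dim row. The NMJ samples read 4.66, 4.65 and 4.38, against 3.79, 3.52 and 3.74 for the non-NMJ samples. NMJ array 3 lay below its array median, as did all 3 non-NMJ arrays, so much of this difference lies in a range where the level over background is unknown. The mean rose from 3.68 ± 0.14 to 4.56 ± 0.16 (SD, n = 3), a 1.84-fold difference with a log2 size of 0.88 ± 0.12 (SE; limma adjusted p = 0.00434).

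By the size of the log2 difference the order was Gjc3, Pmp22, Mal, Mbp, Drp2, Cnp and Mag. The 95% interval of Gjc3, from 3.58 to 4.48, lay above that of Pmp22, from 2.85 to 3.36. The interval of Mag, from 0.58 to 1.18, lay below that of Cnp, from 1.35 to 2.004. Each pair of neighbours between Pmp22 and Cnp had overlapping intervals, so the order of Mal, Mbp, Drp2 and Cnp was within their error. Of the 7 genes, 4 were lowest among non-NMJ arrays on array 2 (Pmp22, Mag, Mal and Drp2), while Mbp and Gjc3 were lowest on array 1 and Cnp on array 3. Among NMJ arrays, array 3 was the lowest for Pmp22, Mag and Mal and the highest for Mbp and Gjc3, so the genes did not rank the replicates alike. Averaged over the 7 genes, the log2 level was 6.77, 6.86 and 6.72 in NMJ samples 1, 2 and 3, against 4.55, 4.36 and 4.67 in the non-NMJ samples.

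Most relatives of these genes had smaller differences than the myelin gene they resemble, and the utrophin gene had a larger one. Emp1, Emp2 and Emp3, the tetraspan relatives of Pmp22, rose by 0.77, 0.84 and 1.04 on the log2 scale. Mal2 and Mall, relatives of Mal, had differences of -0.13 ± 0.10 and -0.48 ± 0.17 (SE) that did not pass (limma adjusted p = 0.416 and 0.0926). Mall is the gene next to Mal on its chromosome, and it passed as lower in 4 alternatives, such as after quantile normalization and median centring (limma adjusted p = 0.0309 and 0.0372). Among connexins, Gja1, a widely expressed connexin gene, rose by 1.496, whereas Gjc1 had a difference of -0.38 ± 0.13 (SE; limma adjusted p = 0.0884). Gjc1 too passed as lower in 4 alternatives, such as after quantile normalization and median centring (limma adjusted p = 0.016 and 0.0298). Gjb1, the connexin gene of non-compact myelin that is mutated in an inherited neuropathy, had one of 0.71 ± 0.33 (SE; limma adjusted p = 0.193), with overlapping arrays. Utrn, the utrophin gene, which muscle fibres also express at the junction, rose by 3.19, more than Drp2, and Dmd, the dystrophin gene, had a difference of -0.11 ± 0.12 (SE; limma adjusted p = 0.59). Siglec1 and Cd22, relatives of Mag, stood at 0.11 and -0.08, and Cd22 is the gene next to Mag. Ahnak, a relative of Prx, fell by 0.996, a call that ended without non-NMJ replicate 1 or 2 or without NMJ replicate 2 or 3 (limma adjusted p = 0.0516 to 0.0645), with the replicate block (0.0802) and without variance moderation (0.0799).

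The gap between a myelin gene and a relative was taken within each array for 12 such pairs, and its change between regions was tested. The myelin gene changed more in 11 pairs, by 0.77 for Mag over Siglec1 up to 4.41 for Gjc3 over Gjc1. In the remaining pair Drp2 changed by 1.33 less than Utrn. The NMJ and non-NMJ arrays did not overlap in 12 of 12 pairs, and each gave an exact permutation p of 0.1 (two-sided, adjusted over the 12 pairs also 0.1). That is the smallest p that 3 arrays against 3 can give, so none could pass 0.05 by this test. Each gap also holds the values of a myelin gene whose arrays were already separated. The count of separated pairs is therefore no independent support.

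**Figure D3:**
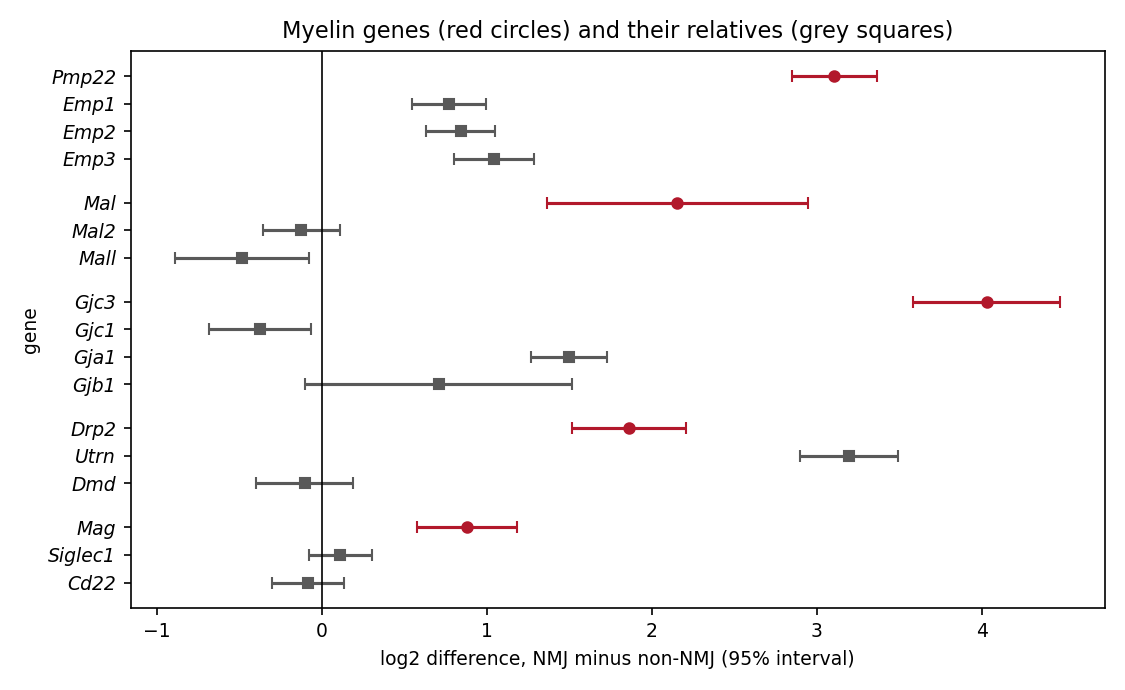
Log2 differences, NMJ minus non-NMJ, with 95% intervals of the limma fit (horizontal axis) for 5 myelin genes (red circles) and the relatives paired with each (grey squares), 3 arrays per region. The interval of Pmp22, from 2.85 to 3.36, lies right of those of Emp1, Emp2 and Emp3, and Utrn at 3.19 lies right of Drp2 at 1.86.

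On each side of the 7 myelin genes, the nearest protein-coding gene with a row was taken in RefSeq order, 14 genes in all. Of these, 1 was called higher (Hs3st3b1, a heparan sulfate sulfotransferase gene near Pmp22, at 0.52 on the log2 scale) and 2 were called lower (Usf2 near Mag and Mrps5 beside Mal, at -0.81 and -0.54). Those counts are near the shares of all rows called, 14.4% higher and 8.63% lower. The 14 genes came from rows with 1 symbol, of which 34.1% were called in a fit of those rows alone. Hs3st3b1 was not called without non-NMJ replicate 1 or 2 or NMJ replicate 1 or 2 (limma adjusted p = 0.051 to 0.0596), nor with the replicate block (0.0542). These 3 genes were named after their values were seen. The rows beside Gjc3, Cyp3a13 and Azgp1, stood at 0.02 and -0.07.

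Other genes of the myelin programme were read from lists. All list counts here and below stand against 14.4% of all rows called higher and 8.63% called lower. Of 9 further myelin and Schwann membrane genes with a row, 5 rose and 2 fell, with a median log2 difference of 0.93. Cadm4, an adhesion molecule of the Schwann cell membrane that faces the axon, rose by 2.60 ± 0.22 (SE; limma adjusted p = 6.44e-04). Cd9, a tetraspanin of many cell types, rose by 1.68. Ncmap, a protein gene of non-compact peripheral myelin, rose by 0.93, and Mog, known as a myelin gene of oligodendrocytes in the central nervous system, rose by 1.12 from a dim level (3.64 to 4.76). The 2 lower genes, named after their values were seen, were Tspan2 and Mpp6 at -0.68 and -0.51. With single arrays left out the count of lower genes was 1 (without non-NMJ replicate 1 or 2 or NMJ replicate 1), 0 (without NMJ replicate 2 or 3) or 2.

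Of 12 listed transcription factors of the Schwann cell lineage, 5 rose and 0 fell, with a median of 0.33. The count of higher factors was 4 with any 1 array left out and after quantile normalization or median centring. Pou3f1, at 0.46, lost its call there (limma adjusted p = 0.0527 to 0.0747 with single arrays left out). The list holds drivers of myelination and also Jun, Sox2 and Pax3, which act against it or before it. Egr2, the factor that drives myelin genes, rose by 1.93 ± 0.13 (SE; limma adjusted p = 2.96e-04), from a mean log2 value of 4.25 to 6.18. Sox10, the lineage factor of Schwann cells, rose by 1.51 ± 0.13 (SE), from 5.51 to 7.02. Nab2, a corepressor that binds EGR proteins, rose by 0.85, and Zeb2, a repressor needed for Schwann cell differentiation and active in many other cells, rose by 1.44. Jun, which is also expressed widely, stood at -0.14, which did not pass except after median centring (limma adjusted p = 0.048). Sox2 stood at 0.44 ± 0.14 (SE) and Pax3 at 0.14 ± 0.12 (SE), and neither passed (limma adjusted p = 0.0784 and 0.45). Sox2 passed as higher with the replicate block (limma adjusted p = 0.0492) and among only the rows with 1 symbol (0.0382). Jun, Sox2 and Pax3 were named for their role after their values were seen.

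Genes for the lipids of myelin rose in 9 of 10 measured cases, with a median of 0.89 and 0 lower. Scd2, a fatty acid desaturase gene, rose by 2.30 ± 0.18 (SE; limma adjusted p = 4.70e-04), the elongase gene Elovl1 by 1.47, the cholesterol synthesis gene Sqle by 1.32 and the fatty acid synthase gene Fasn by 0.98. The exception was Fdps at 0.81 ± 0.30 (SE; limma adjusted p = 0.117), with overlapping arrays. Most of these enzymes are made by many cell types. The genes that make galactolipids, a hallmark of myelin, gave 0.46 for Ugt8a, 0.80 for Gal3st1 and 1.22 for Fa2h, all called higher; they were named for that role after their values were seen. Ugt8a was very dim, with means of 2.23 and 2.68. It passed without non-NMJ replicate 2 but with no other array left out (limma adjusted p = 0.0553 to 0.106), and not after median centring (0.0769).

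Of 11 measured genes for signals and laminins between axon, Schwann cell and basal lamina, 9 rose and 0 fell, with a median of 1.09. Lgi4, a secreted Schwann cell protein needed for myelination, rose by 3.23 ± 0.12 (SE; limma adjusted p = 3.33e-05), and Erbb3, the neuregulin receptor gene, by 2.41. Which cells the Erbb3 RNA came from was not tested. The laminin genes Lama2 and Lamc1 rose by 3.43 and 2.003; muscle fibres make these chains too. Nrg1, the neuregulin gene, and Adam22, the receptor of Lgi4, stood at -0.20 and 0.03 and did not pass; Nrg1 passed as lower after median centring (limma adjusted p = 0.026). Of 13 genes of the node and paranode, where the myelin ends, 8 rose and 0 fell, with a median of 0.62. Gldn, the gliomedin gene of Schwann cell processes at the node, rose by 1.34 ± 0.10 (SE), Cntn1, the contactin gene, by 1.19, the adhesion gene Cadm1 by 3.32 and Ank3, the ankyrin G gene, by 2.16. Ank3 is also expressed in muscle fibres.

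**Figure D4:**
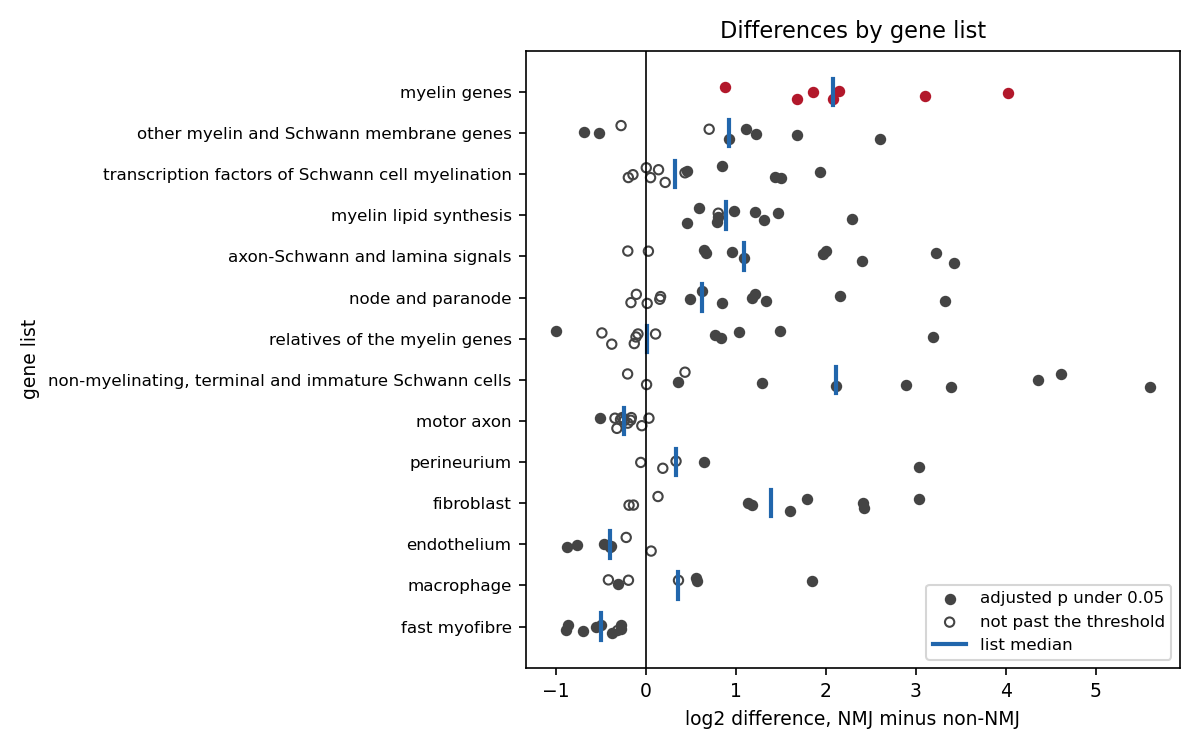
Log2 difference, NMJ minus non-NMJ, of each gene with a row (points, spread vertically for legibility) in 14 lists, with filled points for an adjusted p under 0.05 in limma, open points for the rest and a blue bar at the list median. The 7 myelin genes (red) have a median of 2.08, the Schwann cells without myelin 2.11, fibroblasts 1.40, the motor axon -0.24 and the fast myofibre -0.50.

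Markers of other cells moved in the same arrays, and their part in the rise of the myelin genes was not tested. Over all rows 14.4% were called higher. Of 11 measured markers of non-myelinating, terminal and immature Schwann cells, 8 rose and 0 fell, with a median of 2.11. Their mean log2 level per array ran from 6.15 to 6.18 in NMJ regions and from 3.81 to 4.002 in non-NMJ regions. Ncam1, Matn2, Chl1 and L1cam rose by 5.60, 4.61, 4.36 and 2.90. Ncam1 is also made by muscle fibres. Gfap, Gap43 and Sox2 stood at 0.01, -0.20 and 0.44 and did not pass (limma adjusted p = 0.962, 0.418 and 0.0784). Ngfr rose by 0.36, a call that ended with any 1 array left out and after quantile normalization or median centring. The count of higher markers was 7 in each of those alternatives. Motor axon genes gave 0 higher and 1 lower of 11 measured, where 8.63% of all rows were called lower. The cell bodies of motor neurons lie outside the muscle, so these counts do not measure how much axon was captured. The lower gene was Uchl1 at -0.51, and the count of lower genes was 0 without NMJ replicate 1, 2 or 3. Uchl1 passed without non-NMJ replicate 2 but with no other array left out (limma adjusted p = 0.062 to 0.0867), nor without variance moderation (0.063). The mean axon level ran from 3.22 to 3.31 in NMJ regions and from 3.48 to 3.49 elsewhere, and 10 of the 11 rows lay in the dimmer part of the table, below the median row. Of 5 perineurium markers 2 rose, Cldn1 by 3.04 and Itgb4 by 0.64, with a mean level of 4.98 to 5.10 against 4.10 to 4.26. Slc2a1, Perp and Krt19 stood at 0.34, 0.19 and -0.05 and did not pass (limma adjusted p = 0.124, 0.486 and 0.77). Itgb4 was also counted among the signals between axon, Schwann cell and basal lamina. Of 10 fibroblast markers 7 rose and 0 fell, with a mean level of 8.16 to 8.24 against 6.74 to 6.93.

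Of 7 endothelial markers 0 rose and 5 fell, against 14.4% of all rows called higher and 8.63% called lower. Their mean level was 6.28 to 6.41 in NMJ regions against 6.67 to 6.89. The count of lower markers was 2 without non-NMJ replicate 1 or 2 or any of the NMJ replicates. Of 7 macrophage markers 3 rose and 1 fell, with a mean level of 5.75 to 5.92 against 5.40 to 5.63. There, 1 was higher without non-NMJ replicate 3 or NMJ replicate 1 or 2, and 0 were lower with any 1 of the 6 arrays left out. Of 9 fast myofibre genes, which define the captured tissue, 0 rose and 8 fell. Their mean level stayed near the top of the scale in both regions, at 11.95 to 11.98 against 12.47 to 12.49. The count of lower fibre genes was 5 after quantile normalization and with any 1 of the NMJ replicates left out.

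The rows most like the average profile of the 7 myelin genes were those of Grik2, Itga9, Chrnb1, Itm2c and Sh3d19. Likeness was the root mean square difference from that profile over the 6 arrays, after each row's mean was removed. It was 0.06 for Grik2, a glutamate receptor subunit gene, 0.07 for Itga9, an integrin gene, and 0.08 for Chrnb1, the beta subunit gene of the muscle acetylcholine receptor. Itm2c, a membrane protein gene, and Sh3d19, an adaptor gene, each stood at 0.10. The myelin genes themselves differed more from their own average, by 0.23 for Drp2 and 0.24 for Mbp up to 0.92 for Gjc3. Grik2 rose by 2.22 and Chrnb1 by 2.19 on the log2 scale, and the mean of the 7 myelin genes rose by a similar amount. Grik2 and the 4 others were picked as the closest among all other rows with 1 symbol. Their smaller differences from the profile and their similar rise therefore follow from that choice.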

How the data were processed

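The values deposited by the authors are log2 gene-level expression values from 6 Affymetrix mouse exon arrays, made with RMA (background correction, normalization and probe summary). Per the submitters' processing notes, Affymetrix Expression Console and Transcriptome Analysis Console were used; versions, settings and build: not given in the sources used here. That the scale is log2 was judged from the range of the values. Neither exon-level values nor detection calls were used, and RMA compresses differences at both ends of the scale. Array medians were 4.49 to 4.53 in NMJ and 4.37 to 4.38 in non-NMJ regions. Across all rows, Pearson correlations were 0.988 to 0.990 among NMJ arrays, 0.980 to 0.983 among non-NMJ arrays and 0.953 to 0.961 between regions.

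Of 23332 rows, 14996 carried 1 gene symbol in the platform table, and 14941 of those matched RefSeq (GRCm38.p6) by gene identifier. Groups and replicate numbers came from sample titles. Differences were tested over all rows with limma 3.58.1 under R 4.3.3 (two-sided, lmFit with eBayes, no replicate term). Where a gene had several rows, that of the highest mean was used. On simulated data of 23332 rows with 200 changed, this recovered 44% of 50 rows changed by 1 and 88% of 50 changed by 2 (log2), with 11 false calls. In the data 5364 rows were called, far more than were changed in the simulation. The adjustment was therefore stricter in the simulation, and its shares need not hold for these arrays. The myelin genes and all lists were chosen with earlier results of these data known. Named were the 7 measured genes, up to 4 genes per list by unadjusted p, the 5 rows most like the average profile and, beyond that rule, all measured relatives, exceptions to a count and genes marked as chosen later. Alternatives were quantile normalization, the replicate block, array weights, median centring, removal of dim rows or of rows without a symbol, an intensity trend, no moderation, a stricter threshold and the omission of each array.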

Additional observations from a re-analysis of the deposited data

How the results depend on the processing

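The count of myelin genes called higher was 7 under every alternative run, except without the dimmest 50% of rows, where Mag had no row and the count was 6 of 6. Their log2 differences kept direction and call in all alternatives, with a highest adjusted p of 0.0342 (Mal), and ranged from 0.74 to 0.97 for Mag, 1.46 to 1.77 for Cnp and 3.84 to 4.17 for Gjc3. Over all rows, the median difference was -0.01 as deposited and -0.15 after median centring. The count of all called rows was 5364. It was 2776 at an adjusted p under 0.01, and 3373 to 4706 with single arrays left out, with 3373 without NMJ replicate 1 and 3535 without NMJ replicate 2. The labels share replicate numbers between regions but do not say that these pair the arrays, so the numbers were not taken as pairs. Deviations of same-numbered arrays correlated at 0.05, 0.04 and 0.18 over all rows. Differently numbered arrays were not compared, so these values do not decide whether the arrays are paired. With the replicate block 5064 rows and 7 myelin genes were called. All other list genes with a row, the 5 rows of like profile and 5 chromosomal neighbours were also run under these alternatives, except the stricter threshold, a step added after the data were seen: of 1979 values for 135 genes, 1843 kept their call, 108 lost it, 28 gained it and 0 changed direction with a call. Each myelin gene had a single row, so averaging the rows of a gene gave no further value. Dim rows limit the folds of Gjc3, Drp2 and Mag, since their level over background outside the junctions is unknown. The fold of Mal has the same limit. It read 3.41 on non-NMJ array 2, and 4.42 and 4.39 on non-NMJ arrays 1 and 3, whose medians were 4.37.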
